A study of Mus musculus with 4 samples.

Results

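The cytochrome P450, conjugation and aldo-keto reductase enzymes are 45 listed genes whose products oxidise, reduce or tag small molecules, here measured in the embryonic day 15 kidney of C57BL/6 mice. They were taken by name from a list of enzyme families that was chosen with earlier results of these data known. Of the 45, 43 had an array probe set that names them alone, out of 18193 gene symbols measured in that way. Por, the reductase that supplies electrons to microsomal P450 enzymes, and Ugt1a2 had no such probe set and were not analysed here. Dams aged 8 weeks were assigned to food holding 220 ppm iron (control) or 2 to 6 ppm iron (iron-deficient), which they ate for 3 weeks before gestation and then through breeding and pregnancy. RNA from 2 pools of 16 kidneys per diet was hybridised to 1 Affymetrix array per pool, so the embryos were exposed through the dam and no single kidney was measured. The pools are called controls and deficient pools here, each numbered 1 and 2 as labelled. All 4 pools share the strain, the stage and a label of female sex.

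Cytochrome P450 enzymes hold a haem group, whose iron atom carries out the oxidation, and they receive electrons from partner proteins. Conjugating enzymes then add glucuronic acid, glutathione, sulfate or an acetyl group, which makes the product easier to excrete, while aldo-keto reductases turn aldehydes and ketones into alcohols. In the mature kidney many of these enzymes are made in the proximal tubule, the nephron segment that also takes up and secretes organic acids. Kidney P450 enzymes further activate and inactivate vitamin D and make signalling lipids from arachidonic acid.

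The enzymes were mostly lower in the deficient pools, and the size of the difference varied widely among them. Since they were chosen with earlier results of these data known, their shares beside those of all genes are descriptive. Signals of 25 of the 43 were lower in both deficient pools than in either control pool, which held for 23.2% of all genes. Cyp2d22 was the single member higher in both, a pattern that held for 14.3% of all genes, and the other 17 overlapped between diets. The median log2 difference, iron-deficient minus control, was -0.62 over the 43 members and -0.11 over all genes. With each signal below its array's background raised to that background, the members' median was -0.42. In bulk tissue, fewer cells of a type and less RNA per cell cannot be told apart.

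No member passed an adjusted p of 0.05 in limma's moderated test, which called 0 of 27022 probe sets (0.0%). At an unadjusted p of 0.05, 11 of the 38 members bright enough to be tested were lower, against 2.81% of all tested probe sets, and 0 were higher, against 1.14%. The 11 were Cyp2j5, Cyp2d26, Cyp27b1, Ugt2b5, Ugt8a, Gsta2, Gstt2, Sult1d1, Nat8, Akr1c21 and Fmo1. Of the 38, 33 would have passed the brightness filter on their iron-deficient level alone, so the other 5, Cyp2j5, Cyp27b1, Ugt2b5, Nat8 and Akr1c21, were tested because of their control level. All 5 are among the 11, which leaves 6 of 33 (18.2%) lower at an unadjusted p of 0.05. With 1 probe set per gene, limma's adjusted p was under 0.05 for Ugt2b5 and Cyp2j5, where 0.0539% of 12992 tested genes were called lower. Both belong to these 5, and their deficient-pool signals lie below background, so these calls are not read as support. With a pool left out, 1 diet is left with 1 array, which is assumed to vary like the 2 pools of the other diet. Those fits are therefore given by effect size only. The members' median log2 difference was -0.50 without control pool 1 and -0.49 without control pool 2. Without deficient pool 1 it was -0.20, and without deficient pool 2 it was -0.87. Whether pools fed alike came from separate litters is not in the labels, so limma's p-values here measure only the spread between the pools, which may be technical. An exact permutation test of 2 pools against 2 cannot give a p below 0.333.

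Some properties of the arrays bear on every value. Iron-deficient pool 1 stood apart, with correlations of 0.883 to 0.913 with the other arrays, whereas the control pools correlated at 0.978 with each other. Deficient pool 2 reached 0.970 with a control pool, so it was closer to that control than to the other deficient pool. The 5′ control of 18S ribosomal RNA gave 2144.5 in deficient pool 1, against 243 to 291.9 in the other pools. Against the label of female sex, Eif2s3y, a gene of the Y chromosome, gave 594.5 and 600 in the controls, 253.6 in deficient pool 1 and 20.8 in deficient pool 2. Xist, made in female cells, gave 926.6 and 167.8 in the controls and 3427.3 and 1543.3 in the deficient pools. These signals of sex-linked genes thus differed between pools, and their part in the results was not tested. Each array's background was the highest of 27 control probe sets for which no transcript was added, 8.5 and 8.2 in the controls and 14.4 and 13.3 in the deficient pools.

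**Figure D1:**
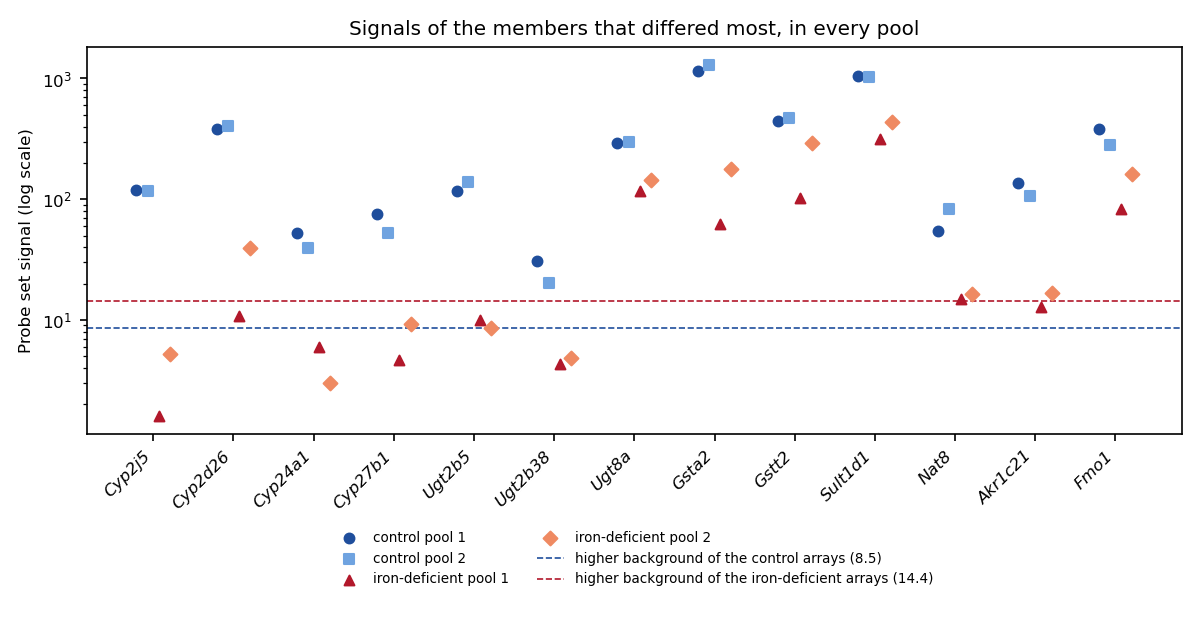
Probe set signals (log axis) of 13 enzymes, 1 point per pool, with dashed lines at the higher background of each diet's arrays. They were picked for pools that did not overlap with a log2 difference of at least 1 in size, or for a bound. Both deficient pools lie under both control pools for each enzyme, and those of Cyp2j5, Cyp24a1, Cyp27b1, Ugt2b5 and Ugt2b38 lie under their array's background.

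The promoters of the 4 enzymes with the smallest p in limma are shown here because these genes were all low in the same pools. All 4 passed the brightness filter only through their control level, so this order by p rests on signals at or near background in the deficient pools. They are Ugt2b5 (chr5:87140291-87140590, minus strand), Cyp2j5 (chr4:96664070-96664369, minus strand), Akr1c21 (chr13:4573825-4574124, plus strand) and Cyp27b1 (chr10:127047996-127048295, plus strand). Each runs from 250 bases before to 50 bases after the annotated start, from RefSeq on GRCm38.p6, and capitals mark the matches to the searched motifs.
Ugt2b5: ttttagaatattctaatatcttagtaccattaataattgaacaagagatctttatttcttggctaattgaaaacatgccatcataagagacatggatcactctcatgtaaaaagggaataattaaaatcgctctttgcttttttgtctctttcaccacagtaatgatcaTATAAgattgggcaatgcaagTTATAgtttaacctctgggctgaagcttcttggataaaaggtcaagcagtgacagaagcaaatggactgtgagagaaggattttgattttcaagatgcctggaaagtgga
Cyp2j5: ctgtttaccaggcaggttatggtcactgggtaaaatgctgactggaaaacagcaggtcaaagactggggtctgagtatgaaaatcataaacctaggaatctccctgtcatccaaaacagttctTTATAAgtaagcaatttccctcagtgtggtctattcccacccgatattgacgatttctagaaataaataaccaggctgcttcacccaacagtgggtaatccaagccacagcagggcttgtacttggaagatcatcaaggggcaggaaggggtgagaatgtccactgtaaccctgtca
Akr1c21: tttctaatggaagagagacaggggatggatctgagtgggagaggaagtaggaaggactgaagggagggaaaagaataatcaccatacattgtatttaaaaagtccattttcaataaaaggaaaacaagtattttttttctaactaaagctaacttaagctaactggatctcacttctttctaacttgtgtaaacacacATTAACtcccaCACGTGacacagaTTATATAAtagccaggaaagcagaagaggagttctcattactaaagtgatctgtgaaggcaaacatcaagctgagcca
Cyp27b1: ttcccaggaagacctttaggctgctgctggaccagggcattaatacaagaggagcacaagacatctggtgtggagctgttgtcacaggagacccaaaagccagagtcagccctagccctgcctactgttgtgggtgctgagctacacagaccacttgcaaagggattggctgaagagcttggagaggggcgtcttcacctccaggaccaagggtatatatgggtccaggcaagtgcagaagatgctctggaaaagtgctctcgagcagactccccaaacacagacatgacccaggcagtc

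The motifs were searched by their letters on both strands, and a match is a description of the letters, not evidence of a bound factor. The Ugt2b5 window holds TATAA at -81 and its reverse complement TTATA at -60, counted from the start. In the Cyp2j5 window TATAA begins at -126 and overlaps TTATA at -127. Akr1c21 holds ATTAAC, the reverse complement of the HNF1 half-site GTTAAT, at -52, the hypoxia response core ACGTG at -40 with its overlapping reverse CACGT at -41, and TTATA and TATAA at -28 and -25. None of the 6 motifs was found in the Cyp27b1 window.

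RefSeq promoters were matched for 37 member genes, with 43 promoters in all, and compared with 32851 promoters of the same length. GTTAAT, the half-site of HNF1, a tubule transcription factor, was in 7 of the 43 member promoters and in 7.10% of all promoters. The members with it were Gsta3, Sult1d1, Akr1b8, Nat8, Sult1a1, Akr1c21 and Cyp2d26. Of 11 promoters belonging to 10 of the 13 enzymes that differed most, 4 held this half-site. The HNF4 core CAAAGTCCA was in 1 member promoter, that of Nat8, and in 0.475% of all. The antioxidant response core TGACNNNGC was in 4 member promoters and 12.4% of all, the hypoxia response core ACGTG in 8 and 19.6%, and the xenobiotic response core GCGTG in 12 and 32.4%. TATAA was in 16 member promoters and 24.9% of all.

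The P450 enzymes of fatty acids and foreign compounds included the widest range of differences. Of 10 such members, 5 were lower in both deficient pools, 1 was higher and 4 overlapped. Over all genes, 23.2% were lower in both and 14.3% were higher. Cyp2j5 encodes an epoxygenase of the kidney that acts on arachidonic acid. Its signals were 118.6 and 117.9 in the controls and 1.6 and 5.2 in the deficient pools. Both control pools were far above background and neither deficient pool was, so only a bound on the fold can be given. Bounds here compare means of log2 signals, in which each dim deficient-pool signal is raised to its array's background. Cyp2j5 was at least 8.54-fold lower, with limma's adjusted p at 0.451 over all probe sets and 0.0398 with 1 probe set per gene. Its second probe set gave 30.8 and 17.8 against 1.5 and 6.2, again with both deficient pools below background.

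Cyp2d26, a relative of the drug-oxidising CYP2D6, gave signals of 382.3 and 404.7 in the controls and 10.8 and 39.1 in the deficient pools. The groups did not overlap, and deficient pool 1 was not above background. Its log2 difference was -4.26 ± 0.64 (SE, n = 2 pools per diet), with limma's adjusted p at 0.525, and -4.05 with the dim signal raised to background. The related Cyp2d22 ran the other way. Its signals were 85.6 and 87.1 in the controls and 106.6 and 233.7 in the deficient pools, a log2 difference of 0.87 ± 0.46. A second Cyp2d22 probe set gave 0.09 ± 0.45 with overlapping pools, so the size and the separation of the diets differed between its probe sets. In the RefSeq order of GRCm38.p6, Cyp2d26 and Cyp2d22 lie on chromosome 15 with 7 protein-coding genes between them. The difference between them was not tested.

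Cyp2j6, separated from Cyp2j5 by 1 protein-coding gene on chromosome 4, was lower by a log2 difference of -0.996 ± 0.57. Its signals were 263.7 and 254.4 in the controls and 74.8 and 225.6 in the deficient pools, so most of the difference lay in deficient pool 1. Cyp4b1, which hydroxylates fatty acids and some foreign compounds, was also lower in both (-0.72 ± 0.38). Cyp1b1, which oxidises oestrogens and polycyclic hydrocarbons and is widely made in mesenchyme, gave 906.6 and 763 in the controls and 621.7 and 785.8 in the deficient pools. These pools overlapped, with a log2 difference of -0.25 ± 0.33 and limma's adjusted p at 0.864. A second Cyp1b1 probe set gave 64.1 and 56.4 against 36.4 and 53.7, lower in both deficient pools by -0.44 ± 0.36. The last Cyp1b1 probe set was not above background in any pool. Cyp2s1 and Cyp4f13 overlapped, each with a log2 difference of 0.02. Cyp4a14 was not above background in any pool. Cyp2e1, the ethanol-oxidising P450, gave 6.6 and 13 in the controls and 4.9 and 1 in the deficient pools. It was above background in control pool 2 alone, so no fold is given for it, although it counts among the 25 that were lower in both pools.

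Of 4 P450 enzymes of sterols and vitamin D, 3 were lower in both deficient pools, against 23.2% of all genes, and 1 overlapped. Both enzymes that set the level of active vitamin D were among the lower ones. Cyp27b1 makes the active hormone in the proximal tubule and Cyp24a1 breaks it down. Cyp27b1 gave signals of 75.6 and 52.3 in the controls and 4.7 and 9.3 in the deficient pools. The deficient pools were not above background, and the bound was at least 4.54-fold lower, with limma's adjusted p at 0.465. Cyp24a1 gave 52.7 and 39.5 in the controls and 6 and 3 in the deficient pools. It was at least 3.30-fold lower on the same kind of bound and, being dim on average, was not tested. A second Cyp24a1 probe set was above background in 1 pool alone, control pool 1 at 12.5, and gave no separation of the diets.

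The remaining P450 enzymes of this kind differed less. Cyp27a1, the mitochondrial sterol hydroxylase that also starts vitamin D activation, gave 90.3 and 65.2 in the controls and 72.5 and 106 in the deficient pools. These overlapped, with a log2 difference of 0.19 ± 0.38 and limma's adjusted p at 0.901. Its direction turned when control pool 2 or deficient pool 2 was left out. Cyp7b1, an oxysterol hydroxylase, gave 700.9 and 696.7 against 333.8 and 622.9, lower in both deficient pools by -0.62 ± 0.41. Its second bright probe set gave -0.94 ± 0.44. The Vdr gene, which encodes the vitamin D receptor and is no member, gave 256.6 and 229.4 in the controls and 103.2 and 170.9 in the deficient pools, with a log2 difference of -0.87 ± 0.38.

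All 3 measured UDP-glycosyltransferases were lower in both deficient pools, against 23.2% of all genes. Ugt2b5, which attaches glucuronic acid to steroids and phenols, gave 116.7 and 140.2 in the controls and 10 and 8.5 in the deficient pools. The signals of both deficient pools lay below background, and the bound was at least 9.24-fold lower. Limma's unadjusted p was 4.5e-05, the smallest of any member, and its adjusted p was 0.289 over all probe sets and 0.0214 with 1 probe set per gene. Its relative Ugt2b38 gave 30.9 and 20.3 against 4.3 and 4.8, at least 1.81-fold lower, and was not tested. Genes of the Ugt2b family are close in sequence, and how far these probe sets read each other's transcripts was not tested.

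Ugt8a adds galactose to ceramide, the step that begins the making of sulfatides, lipids of the renal tubule and of myelin. Its signals were 292 and 297.4 in the controls and 116.1 and 143.8 in the deficient pools. All 4 pools were above background and the diets did not overlap. Its log2 difference was -1.19 ± 0.32, with limma's adjusted p at 0.852. The iron-deficient mean was 44.1% of the control mean.

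The glutathione transferases split into a few lower members and many that overlapped. Of 13 members, 5 were lower in both deficient pools (38.5%, against 23.2% of all genes) and 8 overlapped. The median log2 difference of the 13 was -0.22, and all 13 were above background in every pool. Gsta2, an alpha-class enzyme, gave 1157.4 and 1303.7 in the controls and 62.5 and 179 in the deficient pools. The iron-deficient mean was 9.81% of the control mean, and both deficient pools lay far below both controls. Its log2 difference was -3.54 ± 0.55, with limma's adjusted p at 0.581. A further probe set that carries Gsta2 together with near-identical relatives was not used, and reads from those relatives in the Gsta2 signal were not told apart.

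Gstt2, a theta-class enzyme, gave 442.9 and 474 in the controls and 101.7 and 291.3 in the deficient pools. The groups did not overlap, but the deficient pools were far apart. The log2 difference was -1.41 ± 0.55, with limma's adjusted p at 0.852, and it was -0.65 without deficient pool 1 and -2.17 without deficient pool 2. Gstt1, separated from Gstt2 by 1 protein-coding gene on chromosome 10, overlapped with a log2 difference of -0.04. The alpha-class Gsta3 was lower in both deficient pools (-0.72 ± 0.33). Gsta4, which conjugates products of lipid peroxidation, overlapped with a log2 difference of -0.22, and 5 protein-coding genes lie between it and Gsta2 on chromosome 9.

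The mu-class genes, neighbours on chromosome 3, stayed close to the median of all genes. Gstm1 gave 725.4 and 842.5 in the controls and 556.7 and 826.1 in the deficient pools, which overlapped. Its log2 difference was -0.21 ± 0.36, with limma's adjusted p at 0.89. Gstm2 (-0.20), Gstm5 (-0.20) and Gstm6 (-0.22) had differences of similar size. Gstm5 overlapped, while Gstm2 and Gstm6 were lower in both deficient pools by these small amounts. After median centring of the arrays Gstm1, Gstm2, Gstm5 and Gstm6 lay between -0.024 and -0.0024. These genes are close in sequence, so their signals may be shared. Gstp1, the pi-class enzyme of many epithelia, gave 2638.6 and 3876 in the controls and 2931.9 and 3709.8 in the deficient pools. The deficient pools lay between the control pools, with a log2 difference of 0.04 ± 0.37 and limma's adjusted p at 0.978. Its direction turned under quantile normalization, where it was -0.23. Gsto1 (-0.41), Gstk1 (-0.38) and the microsomal Mgst1 (0.08) overlapped as well.

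The sulfotransferases and the acetyltransferase, 3 genes, were all lower in both deficient pools, against 23.2% of all genes, with a median log2 difference of -1.48. Sult1d1, which sulfates dopamine and other catecholamines, gave 1044 and 1021.1 in the controls and 316.6 and 434.8 in the deficient pools. The control pools differed little, and both deficient pools lay far below them. The log2 difference was -1.48 ± 0.34, with limma's adjusted p at 0.852, and a second probe set gave -2.00 ± 0.44. Sult1d1 lies near the Ugt2b genes on chromosome 5, with 3 protein-coding genes between it and Ugt2b38 and 6 between it and Ugt2b5.

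Nat8 acetylates cysteine conjugates, the last step in making mercapturic acids from glutathione conjugates. It gave 54.4 and 82.4 in the controls and 14.9 and 16.5 in the deficient pools, the latter just above background. The log2 difference was -2.09 ± 0.36, with limma's adjusted p at 0.666. It was -2.02 without deficient pool 1 and -2.17 without deficient pool 2. Sult1a1, which sulfates phenols, gave 229.9 and 209.9 against 84.7 and 184, and was lower by -0.82 ± 0.46.

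Of 4 aldo-keto reductases, 2 were lower in both deficient pools, against 23.2% of all genes, and 2 overlapped. The median log2 difference of the 4 was -0.67. Akr1c21 differed most among them. It encodes a hydroxysteroid dehydrogenase abundant in mouse kidney. Its signals were 135.7 and 105.4 in the controls and 12.7 and 16.7 in the deficient pools. The diets did not overlap, and deficient pool 1 was not above background. The log2 difference was -3.04 ± 0.35, or -2.95 with the dim signal raised to background. Limma's adjusted p was 0.452 over all probe sets and 0.0502 with 1 probe set per gene.

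Akr1a1, the aldehyde reductase that takes part in ascorbate synthesis in mice, gave 4045.6 and 5163.4 in the controls and 3436.9 and 5663.8 in the deficient pools. The deficient pools lay on either side of both controls, with a log2 difference of -0.05 ± 0.39 and limma's adjusted p at 0.976. Its direction turned to 0.15 under median centring. Akr1b8, related to aldose reductase, was lower in both pools (-0.67 ± 0.41). Akr7a5, which reduces toxic dialdehydes, overlapped (-0.67 ± 0.47), with 408.8 in deficient pool 1 and 889.7 in deficient pool 2 against 844.4 and 1085.3 in the controls.

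Of 6 flavin monooxygenases, epoxide hydrolases and aldehyde oxidase, 4 were lower in both deficient pools, against 23.2% of all genes, and 2 overlapped. The median log2 difference of the 6 was -0.40. Fmo1, which oxygenates nitrogen and sulfur atoms of foreign compounds, gave 380.9 and 283.3 in the controls and 82.8 and 161 in the deficient pools. The diets did not overlap, and the log2 difference was -1.51 ± 0.44, with limma's adjusted p at 0.852. Its direct neighbour on chromosome 1, Fmo2, was lower by -0.42 ± 0.34, and further Fmo2 probe sets above background gave -0.49 and -1.02. Another Fmo2 probe set gave 24.8 and 23.3 in the controls and, below background, 11.4 and 9.3 in the deficient pools, and the last was not above background in any pool. Fmo5 was lower by -0.62 ± 0.41.

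Ephx1, the microsomal epoxide hydrolase, gave 57.9 and 81.6 in the controls and 40.3 and 135.9 in the deficient pools. Iron-deficient pool 1 was the lowest and deficient pool 2 the highest of all 4, with a log2 difference of 0.11 ± 0.63 and limma's adjusted p at 0.969. Its direction turned when control pool 1 or deficient pool 2 was left out. Ephx2, the soluble hydrolase that breaks down epoxides of arachidonic acid, gave 231.2 and 210.9 against 138.9 and 207.2 and was lower by -0.38. Aox1, aldehyde oxidase, gave 14 and 7.8 in the controls and 14.4 and 12.8 in the deficient pools. It was above background in control pool 1 alone, and no fold is given.

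**Figure D2:**
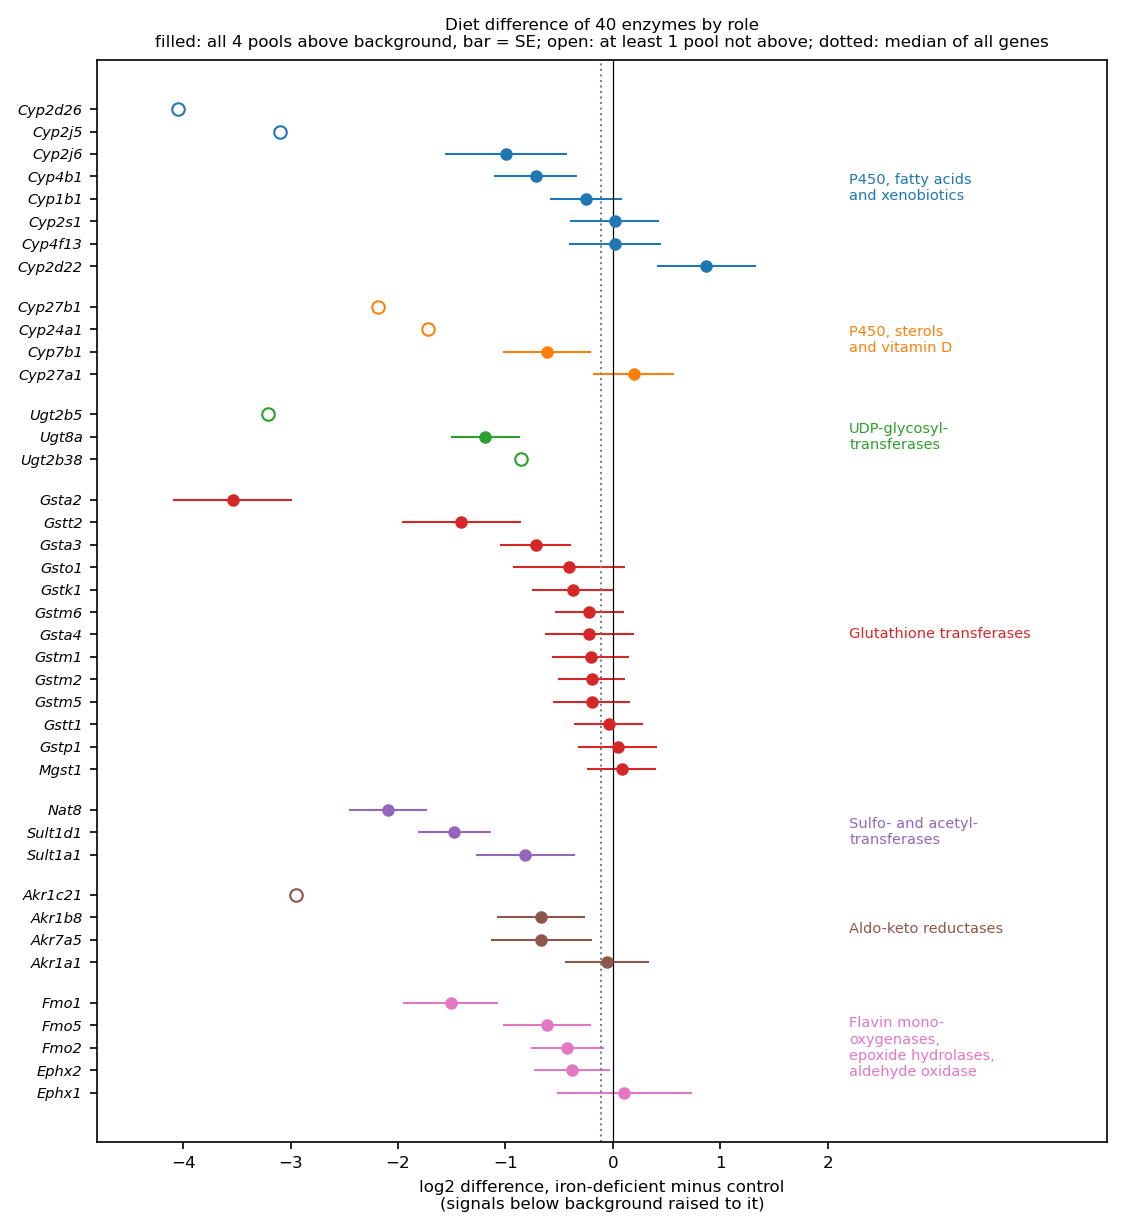
Log2 difference between diets (iron-deficient minus control) of 40 enzymes, grouped by role, with signals below background raised to it. Filled points have all 4 pools above background, bars are standard errors, open points have at least 1 pool below background, and the dotted line is the median of all genes at -0.11.

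The deficient pools contributed unequally. The signal of deficient pool 1 was below that of deficient pool 2 for 34 of the 43 members (79.1%), against 58.9% of all genes. It was below both control pools for 37 members (86.0%), against 51.8% of all genes, and deficient pool 2 was below both controls for 25 members (58.1%), against 37.6% of all genes. Against the control mean, the members' median was -0.87 in deficient pool 1 and -0.20 in deficient pool 2. The enzymes that differed most were picked for pools that did not overlap or for deficient-pool signals at background. That they were low in both pools follows from this choice. Without deficient pool 1, the log2 difference was -2.84 for Akr1c21, -3.33 for Cyp2d26, -2.78 for Gsta2 and -1.25 for Sult1d1. It was smaller for Ugt8a (-1.04), Fmo1 (-1.03) and Gstt2 (-0.65).

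**Figure D3:**
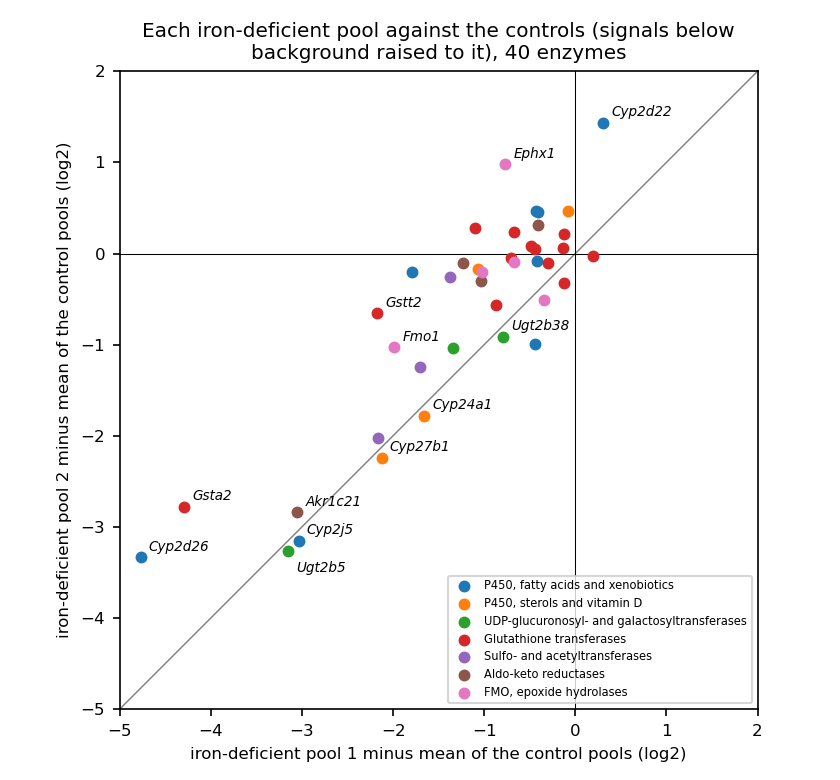
Log2 signal of each deficient pool minus the mean of the control pools for 40 enzymes, pool 1 on the horizontal and pool 2 on the vertical axis, with signals below background raised to it. Most points lie above the diagonal, where pool 1 is lower than pool 2, while Cyp2d26, Gsta2, Ugt2b5, Cyp2j5 and Akr1c21 are low in both and Ephx1 has opposite signs.

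Genes related to these enzymes were given by lists chosen by function, whose medians include genes below background. Of 9 measured P450 partners and genes of haem supply, 2 were lower in both deficient pools (22.2%) and 0 higher, with a median of -0.32. Over all genes, the shares were 23.2% and 14.3%. None of the 9 was called at an unadjusted p of 0.05 in limma. Cyb5b (-0.47 ± 0.32), a mitochondrial cytochrome b5, and Fech (-0.43 ± 0.34), which inserts iron into haem, had the smallest p-values. Fdx1, the ferredoxin that feeds mitochondrial P450 enzymes, overlapped (-0.42 ± 0.44).

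Among 21 measured further P450 genes, 6 were lower in both (28.6%) and 3 higher (14.3%), with a median of -0.32. These shares were near the 23.2% and 14.3% of all genes. At an unadjusted p of 0.05 in limma, 1 of the 12 tested was lower and 2 were higher, against 2.81% and 1.14% of all tested probe sets. Cyp26b1, which breaks down retinoic acid, gave 69.5 and 56.8 in the controls and 417.5 and 130.1 in the deficient pools. Both deficient pools were above both controls, with a log2 difference of 1.89 ± 0.60. Cyp26a1, with the same action, was higher by 0.88 ± 0.34, and Cyp4v3, a fatty acid hydroxylase, was lower by -1.19 ± 0.37. The control signals of Cyp26a1, 15.4 and 11.9, lay under the filter limit of 17.3, so it was tested because of its deficient level.

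Of 31 measured other transferases and genes of cosubstrate supply, 15 were lower in both (48.4%) and 1 higher (3.23%), with a median of -0.36. Over all genes, the shares were 23.2% and 14.3%. At an unadjusted p of 0.05 in limma, 3 of the 23 tested were lower, against 2.81% of all tested probe sets. They were Sult1b1, Sult1c2 and Gclm. Sult1b1 and Sult1c2 lay below background in both deficient pools and were tested because of their control level, so their calls are not read as support. Sult1b1 gave 51 and 52 in the controls and 10.8 and 9.2 in the deficient pools, at least 3.72-fold lower, and Sult1c2 was at least 2.36-fold lower. Gclm, a subunit of the enzyme that begins glutathione synthesis, gave 296.5 and 350.5 against 139.1 and 153.4, a log2 difference of -1.14 ± 0.32. Of 30 other reductases, esterases and hydrolases, 17 were lower in both (56.7%) and 2 higher (6.67%), with a median of -0.51. Akr1c19 (-1.56 ± 0.47) and Adh1 (-1.21 ± 0.39), an alcohol dehydrogenase, were lower, whereas Akr1c14, a hydroxysteroid dehydrogenase, was higher (1.12 ± 0.35).

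Of 18 measured regulators of these enzymes, 5 were lower in both (27.8%) and 0 higher, with a median of -0.21. Over all genes, the shares were 23.2% and 14.3%. Hnf4a, a transcription factor of the proximal tubule and liver, gave 1850.2 and 1968.9 in the controls and 990.2 and 1157 in the deficient pools. The diets did not overlap, with a log2 difference of -0.83 ± 0.32 and limma's adjusted p at 0.852. Nr1h3, a sterol receptor, gave -0.44 ± 0.32.

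Markers of the proximal tubule, a list also chosen with earlier results of these data known, moved with these enzymes. At an unadjusted p of 0.05 in limma, 17 of the 21 tested markers were lower, against 2.81% of all tested probe sets. The tested markers include Slc22a12 (1.7 and 35.2 in the deficient pools) and Slc13a1 (3.6 and 18.1). Both passed the brightness filter only through their control level, so no call of them is read as support. All 23 measured markers were lower in both deficient pools, against 23.2% of all genes, with a median log2 difference of -1.84. Their summed signal was 7238.6 and 6713.5 in the controls and 1739 and 2985.9 in the deficient pools, and 23, 23, 18 and 21 of them were above background. Acsm2 (-2.999 ± 0.48), Slc13a3 (-2.12 ± 0.37) and Slc27a2 (-2.72 ± 0.50) had the smallest p-values. The part of these cells in the enzyme differences was not tested.

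Hepatocytes make many of the same enzymes, and their markers separated the deficient pools from each other. All 17 measured markers were higher in deficient pool 2 than in both controls, as were 6580 of 18193 genes. In deficient pool 1, 14 of the 17 were lower than in both controls, against 51.8% of all genes. Their summed signal was 1864.9 and 1665.8 in the controls, 408.3 in deficient pool 1 and 3603.9 in deficient pool 2, with 13, 11, 7 and 17 above background. Alb, the albumin gene, gave 45.3 and 31.4 in the controls and 17.3 and 372.6 in the deficient pools. The part of such cells in the enzyme signals was not tested.

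Markers of other cell types gave mixed values. For comparison, 23.2% of all genes were lower in both deficient pools and 14.3% were higher. Erythroid markers had a median log2 difference of 1.13 over 8 genes, with 6 higher in both deficient pools. Stroma markers had a median of 0.27 over 8 genes, 4 of them higher in both, and adrenal cortex markers -0.01 over 11 genes. Leukocyte markers had a median of -0.21 over 12 genes, of which 5, among them Ptprc and Lyz2, were lower in both deficient pools and 4 were higher. Mpo, a neutrophil gene, was at 13.1 and 11.6 in the controls and 388.4 and 119.7 in the deficient pools. Endothelial markers had a median of -0.51 over 7 genes, with 4 lower in both deficient pools and 1 higher. Urothelium and ureteric markers had a median of -0.45 over 10 genes, with 6 lower in both and 0 higher. Limma called 4 of 9 tested urothelium and ureteric markers lower at an unadjusted p of 0.05, against 2.81% of all tested probe sets. It called 0 of 7 endothelial markers lower. Lower values were thus not limited to proximal tubule markers. Gonad markers gave 0.05 over 7 genes. Sox9, on the gonad list and also made by kidney epithelium, gave 3529 in deficient pool 1 against 291.7 to 409.1 elsewhere. The part of these cells in the enzyme differences was not tested.

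**Figure D4:**
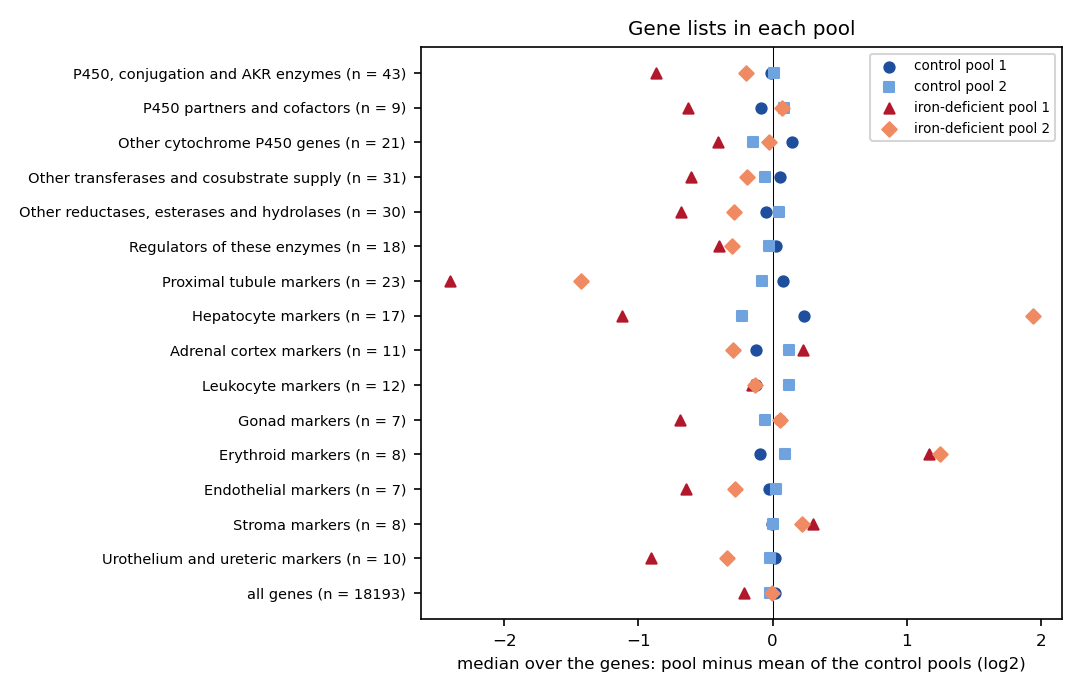
Median over each gene list of the log2 signal of each pool minus the mean of the control pools, 1 point per pool, with the number of genes in each list. Proximal tubule markers are low in both deficient pools, hepatocyte markers are low in deficient pool 1 and high in deficient pool 2, and the enzymes are at -0.87 and -0.20.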

How the data were processed

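RNA from 4 pools of 16 embryonic kidneys was measured on Affymetrix arrays, per the labels' protocols, with biotin as the label. Deposited values are linear intensity values, 1 per probe set, which the authors' files hold without a log, each array having the same mean once the outer 2% of probe sets on either side are trimmed. The submitters' processing notes name RMA, whose output these values do not resemble, so their software was not given in the sources used here. The files name no genome build, and 0 columns were left unused.

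Zeros were set to 0.1 and intensities turned to log2. The 64 control probe sets and the lowest 40% of the other 45037 by mean log2 were left out, a limit at signal 17.3. The remaining 27022 were compared between diets by limma 3.58.1 under R 4.3.3 (lmFit and eBayes, two-sided, diet as the only term, all 4 pools) with Benjamini-Hochberg adjustment. The fit had 2 residual and 3.49 prior degrees of freedom. Values after ± are standard errors, and n is 2 pools per diet. Each gene is given by its probe set with the highest mean signal. Of the 45037, 34945 have 1 symbol in GEO's platform annotation, 932 several (named for no gene) and 9160 none.

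The members and gene lists were chosen with earlier results of these data known. Full values are given for members whose pools do not overlap with a log2 difference of at least 1 in size or which have a bound, and for Cyp24a1, Cyp27b1, Cyp27a1, Akr1a1, Gstp1, Gstm1, Ephx1 and Cyp1b1 whatever their values; the rule also lists Por, which was not analysed here. Up to 3 genes per list are named by smallest p. Vdr and the marker genes Alb, Mpo and Sox9 are named for their role. The linear model was tested on simulated data. Alternatives were other filters, normalizations, an offset of 16, a trend or array weights in limma, the replicate number as a block, 1 probe set per gene, the mean over probe sets, and each pool left out in turn.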

Additional observations from a re-analysis of the deposited data

How the results depend on the processing

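The number of members past an adjusted p of 0.05 in limma, 0 in the reported setting, was 7 with the replicate block (479 of all probe sets), 2 with 1 probe set per gene (8 of all genes tested) and 3 with 1 tested probe set per gene chosen by mean log2 signal (13 of all). It ranged from 0 to 5 with 1 pool left out, 4 of 75 probe sets without control pool 1 and 5 of 31 without control pool 2. The replicate numbers do not establish a pairing. Over the tested probe sets, the deviations of control pool 1 and iron-deficient pool 1 from their diet means correlated at 0.357, with only 2 pools per diet. The number lower at an unadjusted p of 0.05, 11 as reported, was 6 with the lowest 60% left out (2.90% of all probe sets) and ranged from 7 to 22 with 1 pool left out, beside 0.722% to 26.2% of all probe sets, so the highest count is no result about the members. The median of the members ranged from -0.87 to -0.20 with 1 pool left out, the latter without iron-deficient pool 1. With all 4 pools kept, the number lower in both iron-deficient pools lay between 18, under median centring, and 25, as reported, the latter against 23.2% of all genes. Without iron-deficient pool 2, 37 were lower in the remaining iron-deficient pool than in both controls, against 51.8% of all genes. Gstm1 reversed to 0.015 with the mean over its probe sets, Gstp1 to -0.23 with quantile normalization and Akr1a1 to 0.15 with median centring; the cause was not tested. With 1 pool left out, Cyp27a1 ranged from -0.082 to 0.47, Gstm1 from -0.49 to 0.080, Gstp1 from -0.23 to 0.32, Akr1a1 from -0.41 to 0.31 and Ephx1 from -0.77 to 0.98. With the mean over its probe sets Cyp27a1 was 1.31, but its second probe set was above background in iron-deficient pool 1 alone. Median centring moved the median of all probe sets from -0.10 to 0.09. Bounds rest on the background chosen: without its brightest control probe set they were at least 11.8-fold for Cyp2j5, 4.54-fold for Cyp24a1, 6.26-fold for Cyp27b1, 12.7-fold for Ugt2b5 and 2.50-fold for Ugt2b38. This background, a filter by mean linear signal and the choice of probe set by mean log2 signal were chosen after seeing the data. Signal over background limits the dim enzymes, and 2 arrays per diet limit every value.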
